A study of Gracilariopsis lemaneiformis with 12 samples.

Results

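The comparison of 1 day of indole-3-acetic acid (IAA) with no treatment uses 6 of the 12 RNA-seq libraries made from Gracilariopsis lemaneiformis, the 3 treated and the 3 control libraries that the labels place at day 1. The treated samples of strain 981 received 100 µM IAA for 1 day. The controls of the same strain and day are labelled untreated, and the labels name no solvent given to them. All libraries carry the tissue label rhizoids, described as branch rhizoids with a stretch of primary rhizoid. The remaining 6 libraries are treated and untreated samples of day 3, and are used here to show where day 1 differs. They also enter the filter on low values and the estimate of spread behind the day-1 p-values. The series' design text can be read as naming other tissue for the day-3 libraries, so a difference between the days may hold a difference of tissue. Whether the replicates are separate cultures is not stated in the labels, and the p-values below therefore reflect only library-to-library spread, part of which may be technical.

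G. lemaneiformis is a red seaweed farmed for agar, the gelling polysaccharide of its cell wall. IAA is a growth hormone of the auxin class, which in land plants drives cell elongation, branching and root formation through a nuclear receptor and the transcription factors it releases from repression. Seaweeds contain auxins too, and IAA is added to algal cultures to promote growth. How red algae perceive it is less well understood than in land plants.

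The deposited table gives FPKM (fragments scaled to sequence length and to library size) for 30780 assembled sequences. The files do not pair their IDs with gene names, descriptions or sequences, so no pathway or marker list could be applied, the tissue label could not be checked against markers, and 2 loci that rose and 2 that fell are named. The others are described by rank and level. Contigs that share the ID text before ".Contig" were summed, which gave 25766 loci, of which 2479 are clusters of contigs and 23287 are single Unigene sequences. A mean of at least 1 FPKM over the 12 libraries was found for 11044 loci, 1911 clusters and 9133 Unigenes, and these were tested. In the day-1 libraries the summed FPKM lay between 299766 and 304153, and between 5579 and 6032 loci were listed at 0. Pearson's r of log2(FPKM + 1) across the tested loci was 0.990 to 0.991 for pairs of libraries within a day-1 group and 0.984 to 0.985 for pairs between them, and no pair was identical. FPKM values carry no read totals, so the depth is unknown.

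IAA changed few loci by a large factor within 1 day. A log2 change of at least 1 with an adjusted p under 0.05 was found for 63 loci that rose, 0.57% of those tested, and for 39 that fell, 0.353% of those tested (limma, two-sided, Benjamini-Hochberg adjustment over all loci). Each log2 change was computed from FPKM + 1, so changes of low loci come out smaller than their ratios. The rises ran from a median of 4.58 FPKM in controls to 16.3 FPKM with IAA. The falls ran from a median of 14.6 to 5.43 FPKM. The 3 treated libraries did not overlap the 3 controls in any of the 63 rises, nor in 35 of the 39 falls. Over all tested loci, 9.63% were higher and 22.7% were lower in treated libraries without overlap. The large changes were chosen on the same libraries, so their separation was largely set in advance and nothing is read from it.

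Unigene1707 showed the largest rise among the 54 large rises that reached 5 FPKM in the treated group. Loci were named only where treated and control libraries of day 1 did not overlap, so that separation is no result. It was listed at 0 in control replicate 1 and stood at 1.24 and 2.19 FPKM in the other two controls, against 13.1, 13.2 and 15.8 FPKM with IAA. All treated libraries lay far above all controls, although the control level is close to the lower end of what the table records. Its log2 change was 2.96 ± 0.49 (SE; limma adjusted p = 0.000909).

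Unigene3469 came next when rises are ordered by change in log2(FPKM + 1), the order used for all ranks here, and stood at a level where replicates were tight. It was at 19.0, 17.5 and 19.4 FPKM in controls and at 129, 132 and 134 FPKM with IAA. The groups were separated by a gap many times the spread within either, and the means rose 7.06-fold, from 18.6 ± 0.996 to 131 ± 2.66 FPKM (SD, n = 3). The log2 change was 2.76 ± 0.05 (SE; limma adjusted p = 1.922e-12). The order of the first ranks is not firm. Without control replicate 1 the log2 change was 2.49 for Unigene1707 and 2.77 for Unigene3469. As a ratio of means the Unigene at rank 5 rose more than Unigene3469, by 9.54-fold, from 1.03 ± 0.131 to 9.83 ± 0.570 FPKM (SD, n = 3).

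Unigene7611 showed the largest fall among the 27 large falls that had 5 FPKM or more in controls and no overlap. It was at 323, 301 and 307 FPKM in controls and at 64.0, 67.6 and 73.0 FPKM with IAA. Every treated library was thus well below every control. The means fell 4.55-fold, from 310.4 ± 11.3 to 68.2 ± 4.50 FPKM (SD, n = 3), or -2.17 ± 0.05 as a log2 change (SE; limma adjusted p = 1.427e-11).

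Unigene8519 showed the second largest fall among the same 27 loci, to which the ranks of falls refer throughout, at a much lower level. Falls at lower levels, or with overlap, are not ranked. Unigene8519 was at 14.1, 14.9 and 15.3 FPKM in controls and at 4.10, 3.53 and 2.73 FPKM with IAA. The log2 change was -1.83 ± 0.11 (SE; limma adjusted p = 8.087e-08).

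**Figure D1:**
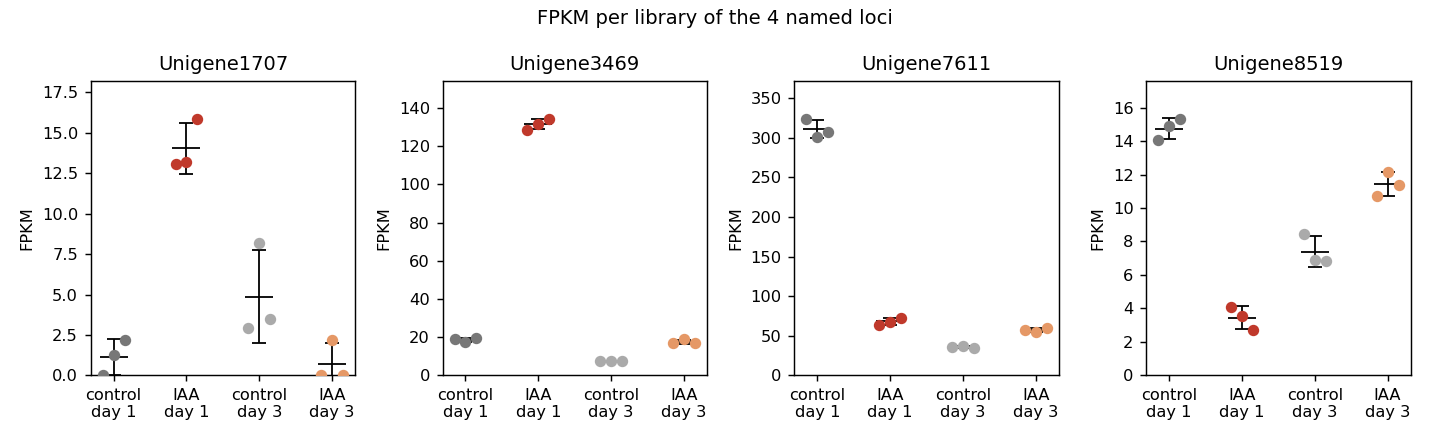
FPKM of the 4 named loci in each of the 12 libraries (points), with the mean and SD of each group of 3 (black bars), on linear axes that start at 0. Treated and control libraries of day 1 do not overlap in any panel, which the rule for naming loci required. Day-1 controls of Unigene7611, at 301 to 323 FPKM, stand above every other library.

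Neither named rise was seen at day 3 at the level of day 1. Unigene3469 was at 7.74, 7.67 and 7.48 FPKM in day-3 controls and at 16.9, 18.9 and 16.9 FPKM with IAA. It was still higher with IAA at day 3 (log2 change 1.10 ± 0.05, limma adjusted p = 3.528e-09), but its treated mean of 17.5 ± 1.13 FPKM was close to the 18.6 ± 0.996 FPKM of day-1 controls (SD, n = 3). Unigene1707 was at 2.91, 8.16 and 3.49 FPKM in day-3 controls and at 0, 2.18 and 0 FPKM with IAA, so the direction at day 3 was the opposite (log2 change -1.89 ± 0.49, limma adjusted p = 0.00808).

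Both named falls had the opposite direction at day 3, as deposited and under each of the other 4 scalings. Unigene7611 was at 36.0, 37.3 and 34.2 FPKM in day-3 controls and at 57.3, 54.9 and 59.3 FPKM with IAA. Its treated means were 68.2 FPKM at day 1 and 57.1 FPKM at day 3, while its control means were 310.4 and 35.8 FPKM. The log2 change with IAA at day 3 was 0.66 ± 0.05 (limma adjusted p = 5.44e-07). Unigene8519 was at 8.44, 6.88 and 6.83 FPKM in day-3 controls and at 10.7, 12.1 and 11.4 FPKM with IAA. That rise was 0.57 ± 0.11 on the log2 scale (limma adjusted p = 0.00104).

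The other large rises spanned low to abundant loci. The treated mean reached 100 FPKM or more in 15 of the 63 and stayed under 5 FPKM in 9. Together the 63 loci made up 0.858 ± 0.0219% of summed FPKM in day-1 controls and 2.54 ± 0.0337% with IAA (SD, n = 3). These sums describe loci chosen for their rise and carry no test. By kind, 54 of the 63 were single Unigenes (85.7%) and 9 were clusters, close to the 82.7% of Unigenes among all tested loci.

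Several of the largest rises were much larger at day 1 than at day 3. The following loci were singled out after their values were seen, and their change at day 1 is part of the difference given. The third largest rise, a Unigene, went from 170 ± 1.42 to 1132 ± 31.1 FPKM at day 1 (SD, n = 3) and was at 161 ± 6.79 and 181 ± 2.96 FPKM at day 3. Its log2 change was 2.72 ± 0.03 at day 1 and 0.16 ± 0.03 at day 3 (limma adjusted p = 4.058e-14 and 0.000903). The small day-3 change was 0.001 with median-of-ratios size factors (limma adjusted p = 0.989). The Unigene at rank 16 went from 11.5 ± 0.705 to 48.6 ± 1.48 FPKM at day 1 and was at 8.25 ± 3.79 and 6.57 ± 0.330 FPKM at day 3. At rank 20 a Unigene went from 30.4 ± 2.98 to 114 ± 2.91 FPKM at day 1, whereas at day 3 its controls were at 150 ± 6.44 FPKM and its treated libraries at 114 ± 7.92 FPKM. Day-3 controls of that locus were therefore the highest of the 4 groups. At rank 16 no change with IAA was detected at day 3 (log2 change -0.19 ± 0.24, limma adjusted p = 0.513). At rank 20 the day-3 change was in the opposite direction (-0.39 ± 0.06, limma adjusted p = 0.000386). The effect of IAA was less positive at day 3 than at day 1 by limma's interaction contrast in all 3 loci (differences -2.56 ± 0.04, -2.18 ± 0.33 and -2.26 ± 0.09, adjusted p = 5.002e-12, 0.000295 and 3.276e-09 in the order given).

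Others were as large or larger at day 3. The largest rise of a cluster, at rank 4, went from 46.5 ± 5.71 to 253 ± 15.7 FPKM at day 1 and from 36.0 ± 2.64 to 529 ± 21.6 FPKM at day 3 (SD, n = 3). A Unigene at rank 8 went from 2.73 ± 0.132 to 17.2 ± 1.73 FPKM at day 1 and from 0.360 ± 0.246 to 28.6 ± 0.876 FPKM at day 3. In both, the treated mean was higher and the control mean lower at day 3 than at day 1, and the effect of IAA was larger at day 3 by 1.42 ± 0.11 and 2.18 ± 0.16 as log2 values (limma interaction adjusted p = 1.122e-06 and 8.445e-07). The Unigene at rank 10 kept nearly the same change on both days, from 68.4 ± 1.76 to 317 ± 1.17 FPKM at day 1 and from 43.3 ± 0.730 to 220 ± 10.4 FPKM at day 3. The difference between its log2 changes was 0.12 ± 0.04 (limma interaction adjusted p = 0.0406), and -0.09 with median-of-ratios size factors (adjusted p = 0.152).

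Of the 63 large rises, 45 (71.4%) were also called higher with IAA at day 3, 6 (9.52%) were called lower and 12 were not called. Among all tested loci 38.8% were called higher and 10.9% lower at day 3. With median-of-ratios size factors the 63 gave 42 higher and 8 lower, against 29.8% and 27.9% of all loci. After quantile normalization they gave 43 higher and 9 lower, against 14.0% and 20.2% of all loci. The day-3 libraries are separate samples, but they entered the choice of the list through the filter on low values and the shared estimate of spread. When the spread was estimated from the 6 day-1 libraries alone, 63 of the 63 rises and 34 of the 39 falls remained large and called. The median log2 change of the 63 was 1.12 at day 3, beside 0.21 over all tested loci. These medians were 0.98 and 0.10 with size factors, and 0.87 and -0.03 after quantile normalization.

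The 39 large falls were divided at day 3. They were called lower again in 9 cases (23.1%), higher in 11 (28.2%) and not called in 19, against the same 10.9% and 38.8% of all tested loci. With median-of-ratios size factors 12 were lower (30.8%) and 11 higher (28.2%), against 27.9% and 29.8% of all loci. After quantile normalization 13 were lower (33.3%) and 10 higher (25.6%), against 20.2% and 14.0%. Their median log2 change at day 3 was 0.06 as deposited, 0 with size factors and -0.20 after quantile normalization, beside 0.21, 0.10 and -0.03 over all tested loci. In 21 of the 39 all day-1 controls lay above all 9 other libraries. Of all tested loci 11.2% had day-1 controls above every other library, but the falls were chosen on day-1 controls, so nothing is read from this difference.

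The effect of IAA differed between the days for 4753 of the 11044 tested loci (43.0%), more positive at day 3 in 35.4% and more negative in 7.66% (limma interaction contrast, Benjamini-Hochberg adjustment). These shares are for FPKM as deposited. Over all loci the day-3 calls went from 38.8% higher and 10.9% lower as deposited to 14.0% and 20.2% after quantile normalization. The direction of the split may thus depend on the scaling, and nothing is read from it. Of the 63 large rises, 23 were more positive and 31 more negative at day 3, and of the 39 large falls, 35 and 1. These loci were chosen on their change at day 1, which enters the difference with the opposite sign, so nothing is read from these counts.

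**Figure D2:**
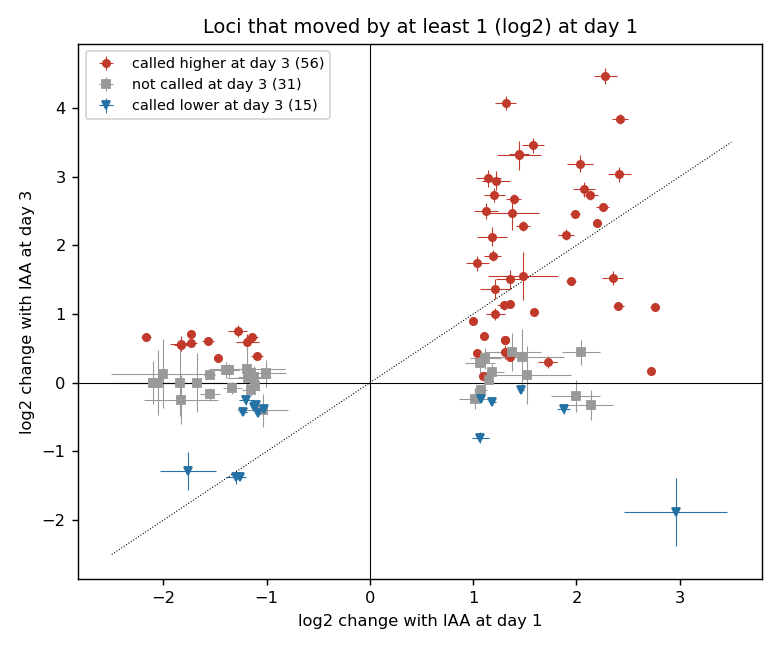
Log2 change with IAA at day 1 (x axis) and day 3 (y axis), with SE bars, for the 102 loci that moved by at least 1 at day 1. The dotted line marks equal change on both days. Rises at day 1 spread from -1.89 to 4.46 at day 3, while falls at day 1 lie between -1.38 and 0.76 at day 3.

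The falls from rank 2 to rank 6 had closely similar profiles over the 4 groups, a similarity that was noticed after their values were seen. All 5 are single Unigenes. They stood at 14.7 to 25.8 FPKM in day-1 controls and at 3.45 to 7.07 FPKM with IAA at day 1, falls of 3.27-fold to 4.27-fold. At day 3 they stood at 7.38 to 14.9 FPKM in controls and at 11.4 to 25.0 FPKM with IAA. Each was thus lower with IAA at day 1 and higher with IAA at day 3, with day-3 log2 changes between 0.54 and 0.71 (limma adjusted p 2.014e-08 to 0.00104). These day-3 changes were 0.39 to 0.56 with median-of-ratios size factors.

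Some falls had a level that was highest by far in day-1 controls, with ranks 7 and 8 as examples. The falls were chosen on day-1 controls, which favours such a profile, so it is given as a description only. The Unigene at rank 7 went from 35.7 ± 1.04 to 11.5 ± 0.638 FPKM with IAA at day 1 and was at 8.86 ± 0.423 and 9.61 ± 0.632 FPKM at day 3 (SD, n = 3). At rank 8 a Unigene went from 12.1 ± 0.761 to 3.46 ± 0.129 FPKM and was at 1.06 ± 0.142 and 0.833 ± 0.166 FPKM at day 3. For neither was a change with IAA detected at day 3 (log2 changes 0.11 ± 0.05 and -0.17 ± 0.10, limma adjusted p = 0.127 and 0.168), although with median-of-ratios size factors the latter was called lower (-0.26, limma adjusted p = 0.0375), as it was after quantile normalization (-0.56, limma adjusted p = 0.000962). A fall present on both days was seen at rank 14, from 439 ± 16.0 to 184 ± 5.83 FPKM at day 1 and from 414 ± 7.85 to 159 ± 3.62 FPKM at day 3.

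Most changes were small. By limma with Benjamini-Hochberg adjustment, IAA at day 1 left 711 loci higher (6.44% of those tested) and 1380 lower (12.5%). The groups did not overlap in 698 and 1362 of the called loci, beside 1063 and 2510 of all tested loci (9.63% and 22.7%). Calls rest on the same libraries, so nothing is read from this separation. Of the called loci, 499 of the higher and 1184 of the lower moved by less than 0.5 on the log2 scale. The median change of called loci was 0.31 for those higher and -0.21 for those lower, beside a median of -0.07 and quartiles of -0.17 and 0.04 over all tested loci. How the small changes divided between rises and falls depended on the scaling: 34.0% of calls were higher as deposited, 54.7% with median-of-ratios size factors (938 higher, 777 lower) and 46.7% after quantile normalization (854 and 975). Under these scalings 63 and 62 of the 63 large rises and 35 and 36 of the 39 large falls remained large and called.

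Calls were concentrated among abundant loci. At 100 FPKM or more 57.1% of 536 loci were called, 145 higher and 161 lower. At 20 to 100 FPKM the share was 41.0% of 2702, and at 5 to 20 FPKM it was 25.8% of 1814. At 1 to 5 FPKM only 3.49% of 5992 loci were called, 78 higher and 131 lower. The standard error of the log2 change moved with these shares, with a median of 0.03 in the most abundant class and 0.15 in the lowest. The part of precision in the difference between classes was not tested.

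**Figure D3:**
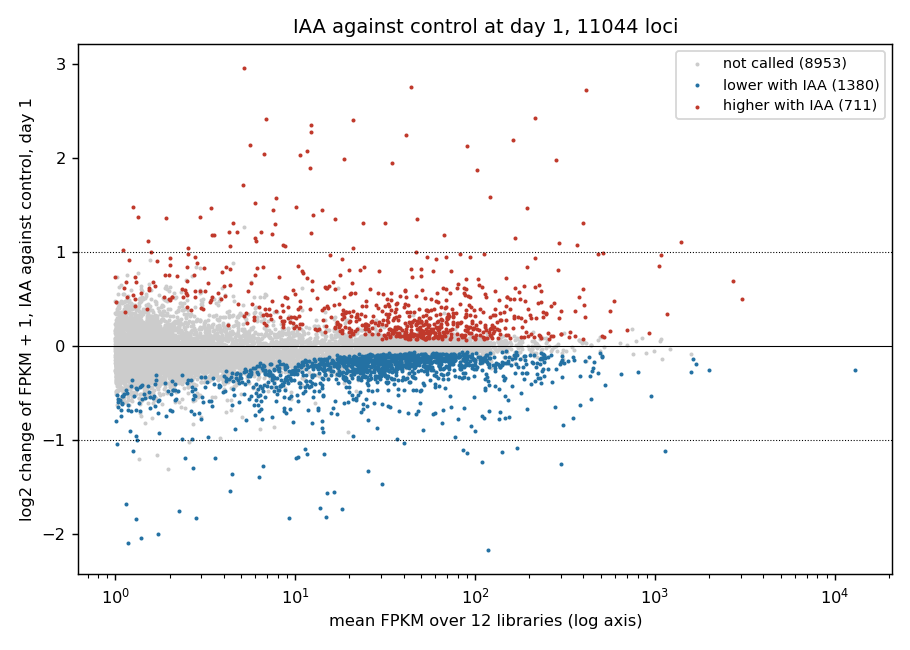
Log2 change with IAA at day 1 (y axis) against mean FPKM over the 12 libraries (log x axis) for the 11044 tested loci. Red points are the 711 called higher and blue points the 1380 called lower. Dotted lines mark a change of 1. Small called changes lie mostly to the right, among abundant loci.

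The 100 most abundant loci, those with a mean of 294.7 FPKM or more, took 23.7% to 24.9% of summed FPKM in each day-1 library. Of these, 30 were higher and 35 lower with IAA, against 38 and 23 with median-of-ratios size factors and 21 and 42 after quantile normalization. As deposited, 6.44% of all tested loci were higher and 12.5% lower, and 57.1% of loci at 100 FPKM or more were called. Large moves among the 100 most abundant loci numbered 4 rises and 2 falls. The loci singled out below were chosen after their values were seen.

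The most abundant locus, a Unigene, held 3.75% to 4.22% of summed FPKM in controls and 3.18% to 3.45% with IAA. Its values were 11347, 12040 and 12830 FPKM in controls and 9544, 10388 and 10458 FPKM with IAA. The groups did not overlap, but the change was modest (log2 change -0.25 ± 0.07, limma adjusted p = 0.0319). The call was lost with median-of-ratios size factors (-0.20, limma adjusted p = 0.186) and when scaled to abundant sequences (-0.23, limma adjusted p = 0.0503). Quantile normalization sets the top-ranked locus of every library to 1 value, so it left no change there (limma adjusted p = 1).

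The loci at abundance ranks 2 and 3, both Unigenes, were higher with IAA. The former averaged 2499.5 ± 109 FPKM without and 3545 ± 107 FPKM with treatment, and the latter at 2058 ± 61.5 and 3322 ± 41.6 FPKM (SD, n = 3). Their log2 changes were 0.50 ± 0.04 and 0.69 ± 0.03 (SE; limma adjusted p = 2.05e-06 and 1.367e-08). With median-of-ratios size factors they were 0.56 and 0.74 and both calls held. After quantile normalization the former showed a change of 0 (limma adjusted p = 1). It ranked second in every day-1 library, and that method gives each rank 1 value, so this outcome was fixed and says nothing on its call. The latter was at 0.46 and kept its call (limma adjusted p = 6.512e-10).

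Of the 20 most abundant loci, 1 cluster rose and 1 cluster fell with a log2 change of 1 or more in size. The former, of 2 contigs, was at 782, 862 and 848 FPKM in controls and at 1700.5, 1796 and 1870.3 FPKM with IAA, which is 1.11 ± 0.04 on the log2 scale (limma adjusted p = 1.347e-09). Every treated library was above every control. The latter, of 5 contigs, was at 1985, 1929 and 2056 FPKM in controls and at 929.6, 901 and 922 FPKM with IAA, a log2 change of -1.12 ± 0.03 (limma adjusted p = 2.793e-11). In day-3 controls that cluster was at 810.3, 836 and 821 FPKM, close to the treated level of day 1.

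Summing contigs changed the picture for clusters. Of the 4932 cluster contigs tested, 43 rose and 24 fell with a log2 change of 1 or more in size. The 43 lay in 36 clusters and the 24 in 20. Of the 1911 clusters tested, 9 rose and 3 fell by that much as sums. Among the 43 contigs, 13 lay in a locus with an equally large rise, 17 in a locus with a smaller rise, 7 in a locus that was not called and 6 in a locus that was lower. For the 24 contigs the corresponding numbers were 6, 9, 8 and 1. Of all tested clusters, 10.6% were called higher and 22.0% lower. Each contig is also part of its own sum, so nothing is read from these counts. The contigs with large changes were mostly small parts of their locus, with a median share of 13.4% of locus FPKM for rises and 9.47% for falls. Over the sequences as deposited, 739 of 14065 were higher (5.25%) and 1223 lower (8.70%).

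Clusters differed in whether their contigs moved together. In the cluster with the largest rise both contigs moved alike, from 24.7 ± 2.03 to 128 ± 7.35 FPKM and from 21.8 ± 3.83 to 125 ± 8.42 FPKM (SD, n = 3). In the abundant cluster that fell, 4 of 5 contigs lost a similar part of their level. They went from 1230 ± 25.9 to 573 ± 10.2, from 568 ± 28.7 to 250 ± 5.03, from 103 ± 6.34 to 51.1 ± 0.636 and from 87.5 ± 4.60 to 41.4 ± 1.51 FPKM. The remaining contig was at 2.61 ± 0.473 and 2.33 ± 0.312 FPKM. In the cluster with the second largest rise, the main contig went from 104.5 ± 7.75 to 498 ± 23.8 FPKM and another from 36.1 ± 1.28 to 60.8 ± 1.39 FPKM, so that 2 contigs of the same cluster rose by unequal factors.

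Among 1519 clusters with at least 2 tested contigs, 504 had a called contig and 43 had contigs called in both directions. The sums of these 43 were higher in 11, lower in 13 and not called in 19, beside 10.6% higher and 22.0% lower among all tested clusters. Conversely, 205 of the 624 called clusters held tested contigs of which none was called by itself. The sources used here do not give how reads shared by similar contigs were assigned, and the part of that step in these contrasts was not tested.

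**Figure D4:**
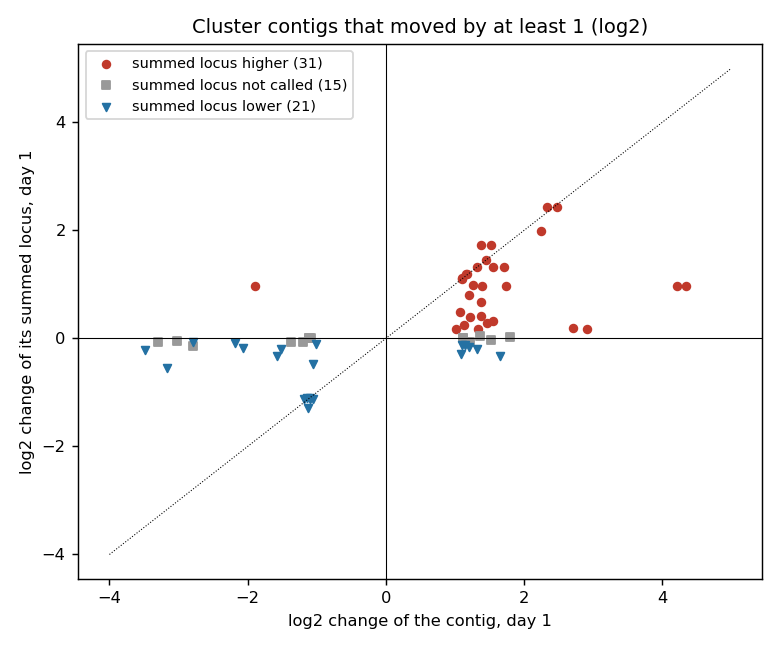
Log2 change at day 1 of the 67 cluster contigs that moved by at least 1 (x axis) and of the summed locus each belongs to (y axis). The dotted line marks equal change. Many points lie near 0 on the y axis, and 7 contigs belong to a locus called in the opposite direction. Of all tested clusters, 10.6% were called higher and 22.0% lower.

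The authors' deposited table lists 421 sequences as higher and 415 as lower with IAA at day 1. In the authors' deposited table the log2 ratios are 3.62 for Unigene1707, 2.82 for Unigene3469, -2.19 for Unigene7611 and -2.09 for Unigene8519. Of the large locus changes found here, 63 of 63 rises and 38 of 39 falls have a sequence listed there in the same direction. Of all 11044 tested loci, 497 hold a listed sequence. Both lists come from the same 6 libraries, and the smallest log2 ratio listed by the authors is 1.0006 in size. This match was thus largely set in advance, and nothing is read from it. Of the 836 entries in the authors' deposited table, 389 were under 1 FPKM in both groups, and 157 reached 5 FPKM in the higher one. Low levels are common in the whole FPKM table too, where 14065 of 30780 sequences had a mean of at least 1 FPKM over the 12 libraries.

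The 3 treated and 3 control libraries overlapped in 486 of the 836 sequences (58.1%) in the authors' deposited table. In the other 350 they did not overlap. Among all tested loci, 9.63% were higher and 22.7% lower with IAA without overlap. Those loci are sums of contigs and exclude the lowest levels, so the shares are not directly comparable. The 486 with overlap had a median of 0.583 FPKM in the higher group, beside 3.16 FPKM for the 350 without overlap. Cluster contigs made up 599 of the 836 entries and 398 of the 486 with overlap, beside 7493 of the 30780 sequences in the whole FPKM table. In 127 entries only 1 of the 6 libraries was above 0. Of the 836, 351 passed the filter on low values here, and 207 of those were called in the same direction by limma with none in the opposite one. These calls and the authors' ratios come from the same libraries, so nothing is read from the shared direction.

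**Figure D5:**
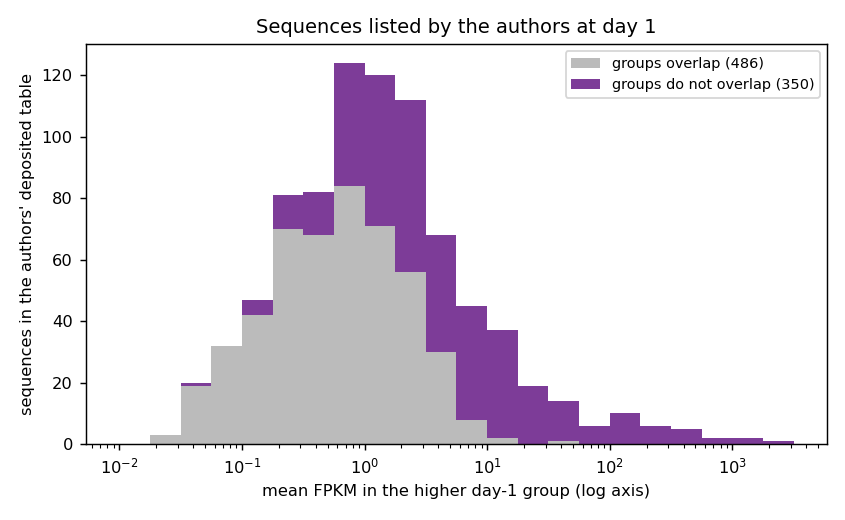
Number of sequences in the authors' deposited table for day 1 (y axis) by mean FPKM in the higher group (log x axis), stacked by whether the treated and control libraries overlap. The 486 with overlap (grey) lie mostly under 1 FPKM, and the 350 without overlap (purple) reach up to 1785 FPKM.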

How the data were processed

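RNA was extracted from ground tissue with a plant column kit and sequenced from standard Illumina libraries, per the labels' protocols. Bowtie2 2.2.5 is named, per the submitters' processing notes, with no role. For the assembler, the quantifier and the authors' test, the sources used here give nothing. The authors deposited FPKM per library with 2 decimals, and for day 1 a table holding, per the file headers, log2 ratios with q-values and p-values. The FPKM values in that table were identical to those in the full table.

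FPKM was analysed as log2(FPKM + 1) with limma 3.58.1 (R 4.3.3): 4 group means over all 12 libraries, so that the groups share 1 estimate of spread, and an abundance trend in the variance prior. An adjusted p under 0.05 is a call, and the difference between days is the interaction contrast. Contigs were summed before the logarithm and the filter. The method was tested on simulated data. The loci named are the 2 largest rises and the 2 largest falls with a call, at least 5 FPKM in the higher group and no overlap. Lists, rules and tests were chosen with earlier results of these data known. Alternatives covered the pseudocount, the filter, 4 scalings (median-of-ratios size factors, quantile normalization, a common sum and the median ratio of sequences of 20 FPKM or more), the variance prior, a replicate block, day-1 libraries alone, the largest contig in place of the sum and leaving out each day-1 library.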

Additional observations from a re-analysis of the deposited data

Results flagged for a closer look

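The effect of IAA on the named loci differed between the days by limma's interaction contrast, which set each result below apart. The loci were chosen for a large change at day 1, which is part of the difference, so its size is a description. The log2 change at day 3 minus that at day 1 was -4.85 ± 0.70 for Unigene1707 and -1.65 ± 0.07 for Unigene3469 (SE; limma adjusted p = 0.000192 and 3.276e-09). It was 2.83 ± 0.07 for Unigene7611 and 2.40 ± 0.15 for Unigene8519 (SE; limma adjusted p = 9.483e-11 and 1.941e-07).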

How the results depend on the processing

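The 4 named loci kept their direction and call under each of 17 alternatives. Their log2 changes ranged from 2.49 to 4.38 for Unigene1707, from 2.71 to 2.82 for Unigene3469, from -2.22 to -2.12 for Unigene7611 and from -2.08 to -1.71 for Unigene8519, with limma adjusted p of at most 0.0277, reached by Unigene1707. Median-of-ratios size factors lowered the sequences called lower from 1223 to 730 and the loci called lower from 1380 to 777. A filter at a mean of 5 FPKM left 24 of the 39 large falls, because fewer loci are tested there. Leaving out 1 day-1 library gave 598 to 675 loci higher, 1136 to 1261 lower, 62 to 67 large rises and 36 to 43 large falls. The other counts under these alternatives stayed within 1.5 times those reported. Same-numbered libraries of the day-1 groups did not deviate together (Pearson's r across loci 0.0478, 0.00337 and 0.0154), and not every library correlated best with its own number. A replicate block gave 672 loci higher and 1300 lower, and the fit to the day-1 libraries alone gave 594 higher and 1038 lower. Depth is unknown, so a change not detected at 1 to 5 FPKM may still exist.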
